A study of Arabidopsis thaliana with 83 samples.

Results

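A set of 34 probe sets of the Arabidopsis ATH1 array stood at least 1 log2 unit higher after 30 min of auxin treatment than at 0 h in seedlings of the accessions Bur-0 and Col-0, and in none of the 5 other accessions profiled beside them. The members were chosen from all 22746 probe sets other than array controls. Signals were taken as log2(signal + 16), and the group mean at 30 min minus that of the same accession at 0 h had to be at least 1 in both Bur-0 and Col-0 and under 1 in each of Bay-0, Bl-1, C24, Fei-0 and Sha. In all 36 probe sets met these thresholds, and STZ and PUB22 were then left out together with WRKY53, WRKY22 and CML38, which did not meet them. The 30 min change that chose the members is therefore given below as a description, with no test.

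The series title names natural variation in the auxin response. Whole seedlings of 7 natural accessions were harvested at 0 h, 30 min, 1 h and 3 h. The 83 arrays fall into 28 groups of 3, except that the 3 h group of Fei-0 holds 2. Bur-0 and Col-0 were set against Bay-0, Bl-1, C24, Fei-0 and Sha, and within each accession the treated times against 0 h. Every group carried its natural genotype and shared the same culture, 7 days shaken in liquid medium at 22 °C under constant light that was filtered yellow for the last 24 h, after 5 days of cold in the dark. The labels call the Bay-0 material a recombinant inbred line in 1 field and the Bay-0 parent in another, and it was taken as Bay-0. None of the arrays is labelled as mock-treated, and a difference between times therefore also holds handling and elapsed time. Whether replicate arrays stem from different cultures is not labelled, so the p-values measure the spread among these arrays alone, and that spread may be technical.

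Auxin acts through receptor proteins that trigger the destruction of Aux/IAA repressors, and within minutes this releases transcription of the GH3, SAUR and Aux/IAA genes themselves. A different class of rapid genes answers to touch, wounding, cold shock and microbial signals. It includes AP2/ERF and zinc-finger transcription factors, calmodulin-like calcium sensors, protein phosphatases and U-box ubiquitin ligases. In whole seedlings, fewer cells of a type and less RNA per cell cannot be told apart.

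Of the 34 members, 19 had a probe set listed with 1 gene, 2 were listed with several genes and 13 had no gene listed, and those 13 are called by their probe set number. The named genes held 2 AP2/ERF factors (ORA47 and AT1G19210) and 2 calmodulin-like proteins (CML37 and AT1G76640, for which CML39 is a synonym). They also held the type 2C protein phosphatase AT3G62260, the ARM-repeat protein AT3G02840, the VQ-motif protein AT2G22880, the flotillin-like membrane protein AT5G64870, the efflux carrier AT5G52050 (DTX50) and the cytochrome b561 protein AT5G35735. For AT2G18210, AT4G27654, AT4G27657, AT5G17350, AT5G65300, AT1G74450, AT1G76600 and AT2G28400 no role is given here. By the RefSeq annotation, 5 of the 19 genes lie on chromosome 1, 4 on chromosome 2, 2 on chromosome 3, 2 on chromosome 4 and 6 on chromosome 5. AT4G27654 and AT4G27657 are neighbours with 0 protein-coding genes between them, and 3 such genes lie between AT1G76600 and AT1G76640. AT2G32190, a small cysteine-rich membrane protein, is also 1 of the 2 genes listed for member 265670_s_at, so these 2 members share a target.

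The values used for the choice were alike in Bur-0 and Col-0. The 30 min change had a median of 1.29 in Bur-0 (1.00 to 2.97) and 1.25 in Col-0 (1.02 to 2.08), and in 30 of 34 members both lay within 0.5 of each other. Of the accessions on the other side of the rule, Bay-0 came closest, with a median of 0.51, and it had the highest change of the 5 in 16 members. C24 had a median of 0.38, Bl-1 0.30 and Fei-0 0.21. Sha stood at the other end, with a median of -0.04, 20 members below 0 and the lowest change of the 5 in 19 members. Membership is a matter of degree for much of the set, since in 24 members the highest of the 5 changes was at least 0.5 and in 16 at least 0.75.

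**Figure D1:**
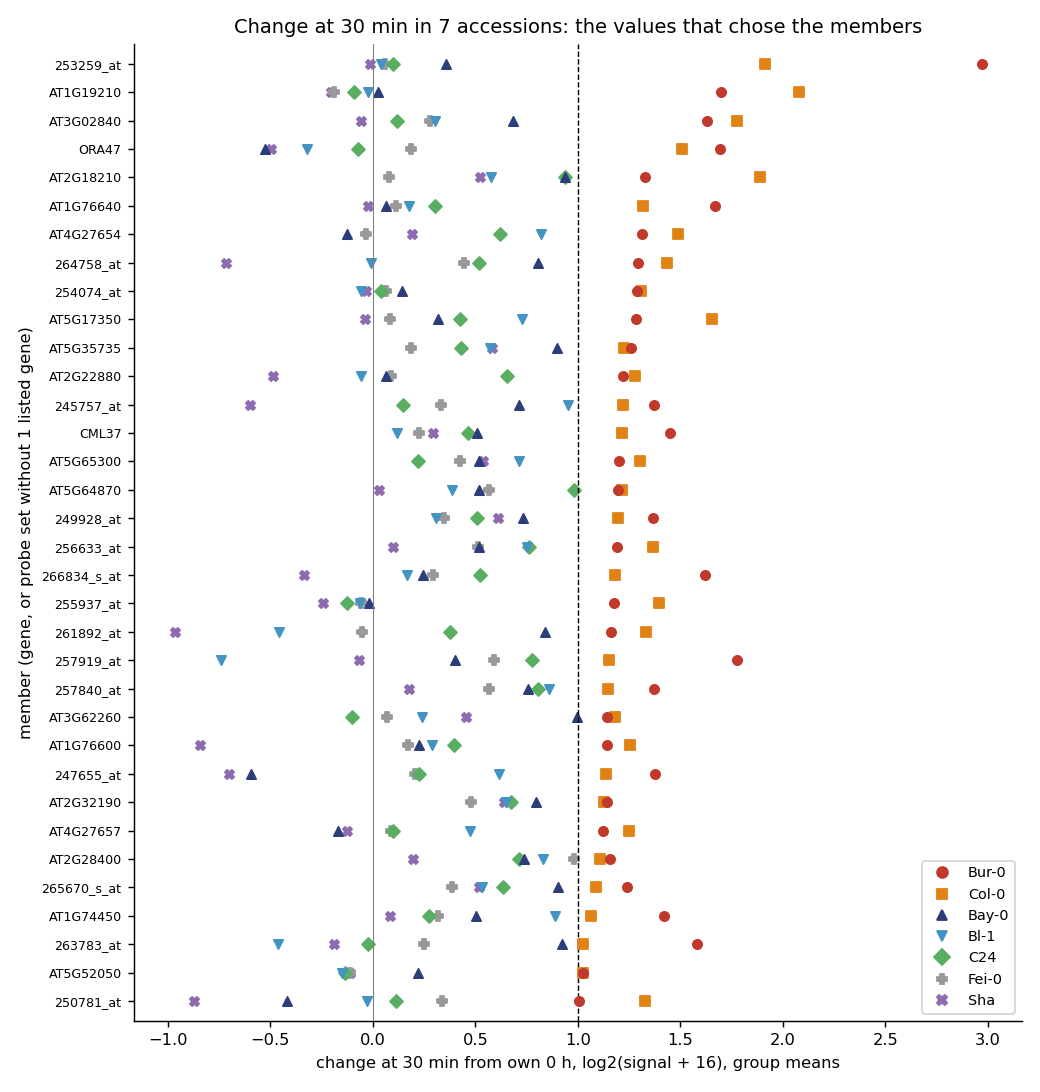
Change of the group mean at 30 min from the same accession's 0 h on the log2(signal + 16) scale (x axis) for each of the 34 members (y axis), with 1 marker per accession. Bur-0 and Col-0 lie right of the dashed line at 1 and the other 5 left of it because the rule placed them there, and the gap between both sides is wide for 253259_at and AT1G19210 and narrow for AT3G62260.

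The gap was widest for AT1G19210, at 1.70 in Bur-0 and 2.08 in Col-0 against a highest value of 0.02, in Bay-0, among the other 5. Probe set 253259_at, singled out after its values were seen, had 2.97 in Bur-0 and 1.91 in Col-0 against at most 0.36. Just inside the threshold on the Bur-0 and Col-0 side lay 250781_at (1.00 in Bur-0), AT5G52050 (1.02 in Col-0), 263783_at (1.02 in Col-0) and AT1G74450 (1.07 in Col-0). Just outside lay 247708_at (0.985 in Col-0), AT2G41640 (0.96 in Bur-0), AT1G18740 (0.96 in Col-0) and 256017_at (0.96 in Col-0). On the side of the other 5, AT3G62260 (0.996 in Bay-0), AT5G64870 (0.98 in C24), AT2G28400 (0.98 in Fei-0) and 245757_at (0.95 in Bl-1) were just inside. Just outside were 257644_at (1.00 in Bl-1), 251745_at (1.02 in Bay-0), AT4G29780 (1.03 in Bay-0) and 253485_at (1.04 in Bay-0).

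The membership itself depended on the scale. With 1 added to the signals in place of 16 the rule chose 56 probe sets, 18 of them among the 34, and with 64 added it chose 11, of which 5 were among them. After quantile normalization it chose 32, all of them among the 34. Leaving out each of the 42 arrays at 0 h and 30 min in turn gave 32 to 37 probe sets, and 19 members were kept in every case. Only 4 members were kept under all of these settings together.

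Of the transcription factors, ORA47 activates genes of jasmonate biosynthesis. Its signal in Bur-0 was 39.2, 38.6 and 28.5 at 0 h, 154, 162 and 134 at 30 min, 156, 197 and 189.9 at 1 h, then 267, 328 and 215 at 3 h. In Col-0 it was 153, 151 and 158 at 0 h, 407, 452 and 557 at 30 min, 438, 572 and 556 at 1 h, then 410.0, 545 and 622 at 3 h. Over the arrays of the other 5 the lowest, median and highest signals were 1.43, 16.7 and 24.9 at 0 h, 5.69, 9.58 and 24.3 at 30 min, 1.47, 10.9 and 21.8 at 1 h, then 1.34, 8.46 and 37.9 at 3 h. ORA47 was thus higher on every Bur-0 and Col-0 array than on any array of the other 5 at each time, 0 h included, and on every Col-0 array it was higher than on any Bur-0 array of the same time. At the times the rule did not use, the mean of Bur-0 and Col-0 exceeded that of the other 5 by 3.61 ± 0.11 at 1 h and 3.84 ± 0.12 at 3 h. These are log2 differences ± SE of the limma model, and p-values given below are adjusted over all 15922 probe sets tested. For ORA47 the difference is a description, since it may have passed the filter on low signals only through Bur-0 and Col-0.

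AT1G19210 encodes another member of the AP2/ERF family. Bur-0 arrays read 17.8, 8.82 and 12.5 at 0 h, 73.4, 89.7 and 70.6 at 30 min, 101, 103 and 104 at 1 h, then 73.9, 100.0 and 147 at 3 h. Col-0 arrays read 54.8, 61.0 and 45.6 at 0 h, 243, 261 and 336 at 30 min, 291, 329 and 310.0 at 1 h, then 187, 226 and 283 at 3 h. For AT1G19210 the other 5 had a lowest, median and highest signal of 5.11, 9.92 and 18.1 at 0 h, 1.74, 7.89 and 22.5 at 30 min, 0.623, 9.00 and 20.1 at 1 h, then 1.85, 6.53 and 22.7 at 3 h. Bur-0 and the other 5 overlapped at 0 h and were apart at every later time, while Col-0 was apart throughout. The log2 level difference was 3.00 ± 0.12 at 1 h and 2.84 ± 0.12 at 3 h. It is a description, since AT1G19210 too may have passed the filter only through Bur-0 and Col-0.

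**Figure D2:**
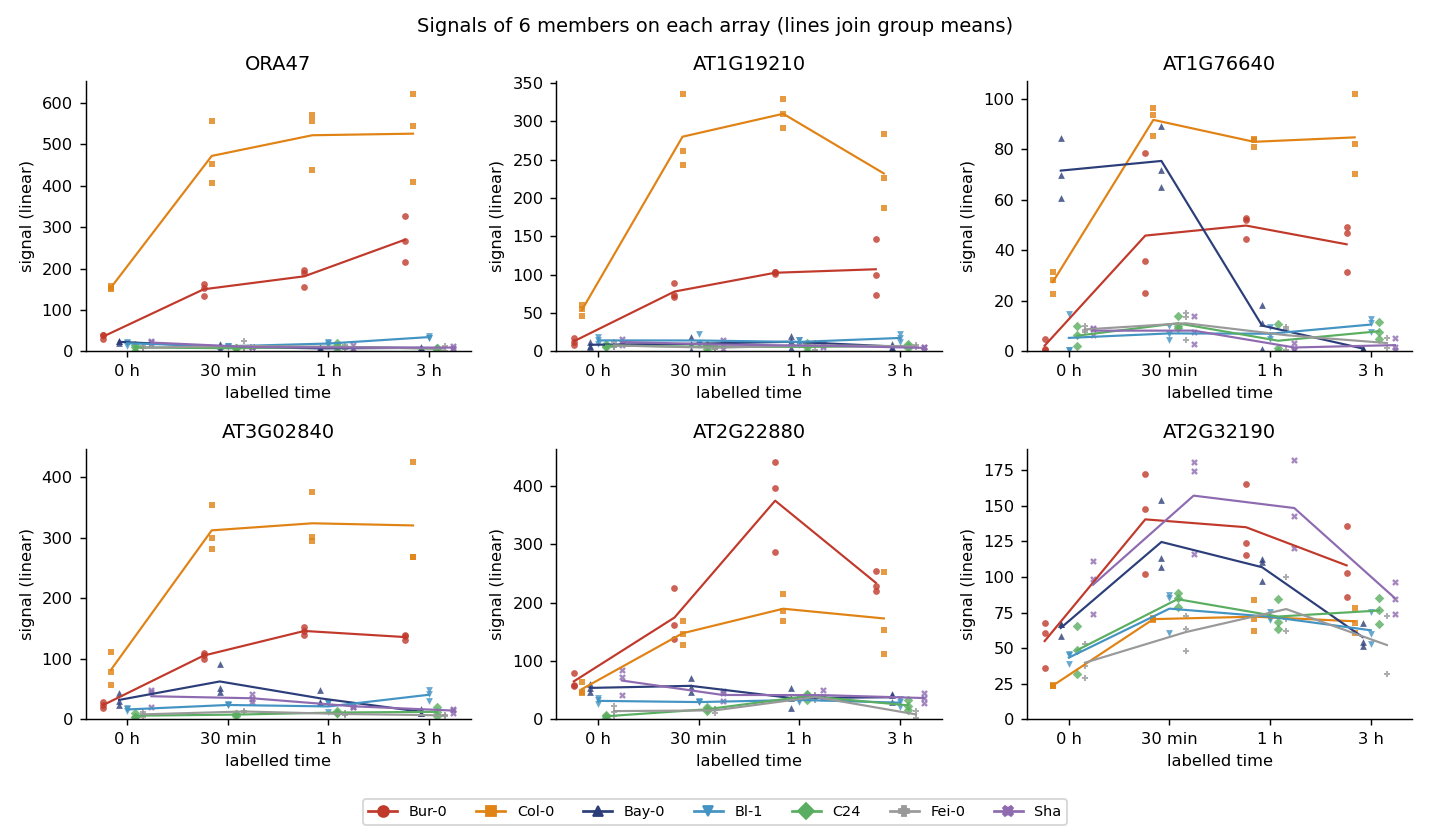
Linear signal of 6 members on each array (y axis) at the 4 labelled times (x axis), with 1 marker per array, lines through group means and a y axis of its own in each panel. From 30 min on ORA47, AT1G19210 and AT3G02840 stand high in Col-0, intermediate in Bur-0 and low in the other 5, AT1G76640 in Bay-0 is high at 0 h and 30 min and low afterwards, and the accessions overlap for AT2G32190.

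Calmodulin-like proteins bind calcium and pass its signal on to other proteins. The calmodulin-like gene AT1G76640 had signals in Bur-0 of 0.999, 0.699 and 4.99 at 0 h, 35.7, 23.2 and 78.5 at 30 min, 52.0, 44.6 and 52.8 at 1 h, then 31.2, 46.7 and 49.2 at 3 h. In Col-0 they were 22.7, 28.1 and 31.3 at 0 h, 85.1, 93.7 and 96.2 at 30 min, 84.2, 81.1 and 83.6 at 1 h, then 70.2, 82.0 and 102 at 3 h. Bay-0 differed from the remaining accessions in this gene, with 69.8, 84.3 and 60.6 at 0 h, 65.2, 89.2 and 71.7 at 30 min, 11.3, 1.04 and 18.2 at 1 h, then 1.08, 0.889 and 1.32 at 3 h. The Bay-0 arrays thus stood among the highest at 0 h and 30 min and at or below 18.2 later. In Bl-1, C24, Fei-0 and Sha no array of AT1G76640 passed 15.1 at any time. The log2 level difference between Bur-0 with Col-0 and the other 5 was 1.92 ± 0.12 at 1 h and 1.88 ± 0.13 at 3 h. It is a description, since AT1G76640 may have passed the filter only through Bur-0 and Col-0.

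CML37, the other calmodulin-like member, was among the 3 members whose mean log2(signal + 16) lay in the lowest 30% of probe sets, which were filtered out before testing. Bur-0 arrays read 3.04, 1.36 and 0.892 at 0 h, 38.9, 24.3 and 35.5 at 30 min, 32.5, 35.1 and 53.0 at 1 h, then 31.6, 32.9 and 43.0 at 3 h. Col-0 arrays of CML37 read 7.96, 8.16 and 10.1 at 0 h, 36.1, 43.7 and 44.7 at 30 min, 52.9, 41.5 and 36.1 at 1 h, then 51.2, 63.4 and 105 at 3 h. In the other 5 the lowest, median and highest CML37 signals were 0.303, 5.18 and 13.4 at 0 h, 0.391, 9.81 and 18.2 at 30 min, 0.331, 3.49 and 11.3 at 1 h, then 0.208, 4.21 and 11.7 at 3 h. Bur-0 and Col-0 each overlapped with the other 5 at 0 h, and from 30 min on every Bur-0 and Col-0 array lay above every other array. In the fit without the low-signal filter the log2 level difference of CML37 was 1.45 at 1 h and 1.78 at 3 h.

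Among the remaining named genes, the ARM-repeat gene AT3G02840 read 27.6, 23.3 and 18.7 in Bur-0 at 0 h, 105, 109.7 and 100.0 at 30 min, 152, 139 and 145 at 1 h, then 130.4, 138 and 138 at 3 h. In Col-0 AT3G02840 read 111, 56.3 and 78.0 at 0 h, 281, 300.0 and 354 at 30 min, 376, 301 and 294 at 1 h, then 267, 268 and 425 at 3 h. No array of the other 5 passed 48.1 at 0 h, 91.2 at 30 min, 47.6 at 1 h or 48.3 at 3 h, so they overlapped with Bur-0 at 0 h only. The log2 level difference of AT3G02840 was 2.79 ± 0.11 at 1 h (limma, adjusted p = 2.71e-33) and 2.84 ± 0.11 at 3 h (limma, adjusted p = 1.58e-33).

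VQ-motif proteins bind WRKY transcription factors and modulate them, and AT2G22880 is of that family. Every Bur-0 array lay above every Col-0 array at 1 h, with 442, 286 and 397 in Bur-0 and 215, 169 and 185 in Col-0. At 3 h Bur-0 had 254, 228 and 219.8 and Col-0 112, 153 and 253, so the 2 overlapped. The other 5 lay between 19.3 and 54.2 at 1 h and between 2.40 and 44.3 at 3 h, below all arrays of Bur-0 and Col-0, whereas at 0 h AT2G22880 reached 80.0 in Bur-0, 63.7 in Col-0 and 85.0 in the other 5. Its log2 level difference was 2.40 ± 0.12 at 1 h (limma, adjusted p = 2.59e-27) and 2.38 ± 0.12 at 3 h (limma, adjusted p = 8.15e-27).

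AT3G62260, of the type 2C phosphatase family that reverses protein phosphorylation, had a mean signal of 33.5 ± 10.1 in Bur-0 at 0 h, 92.9 ± 18.6 at 30 min, 91.8 ± 11.2 at 1 h and 130.4 ± 29.2 at 3 h (SD, n = 3 each). Bay-0, at 26.9 ± 2.58, 70.2 ± 13.9, 26.6 ± 3.43 and 28.1 ± 2.95 at the same times, showed a high 30 min value that was no longer seen at 1 h. Among the other 5, this 30 min value in Bay-0 was the closest of any member to the threshold. Its log2 level difference was 1.50 ± 0.09 at 1 h (limma, adjusted p = 5.75e-24) and 1.86 ± 0.09 at 3 h (limma, adjusted p = 6.35e-29), and no array of the other 5 exceeded 38.4 at 1 h or 36.1 at 3 h, against lowest values of 79.3 and 110.3 in Bur-0 and Col-0.

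The efflux carrier AT5G52050 averaged 38.0 ± 7.47 in Bur-0 and 119 ± 12.7 in Col-0 at 1 h (SD, n = 3 each), and no array of the other 5 passed 19.9. The flotillin-like gene AT5G64870 averaged 36.3 ± 3.49 in Bur-0 and 78.5 ± 4.62 in Col-0 at 1 h, against 30.9 ± 4.01 in C24 (SD, n = 3 each), and its C24 arrays overlapped with those of Bur-0. At 0 h AT5G35735, an auxin-responsive family gene, was highest in Bay-0, with 434 ± 35.5 against 236 ± 1.91 in Bur-0 and 285 ± 1.74 in Col-0 (SD, n = 3 each). At 1 h AT5G35735 averaged 674 ± 43.7 in Bur-0 and 688 ± 65.5 in Col-0, against 584 ± 156 in Bay-0 (SD, n = 3 each), and Bay-0 overlapped with both. The log2 level differences at 1 h were 1.10 ± 0.09 for AT5G64870 (limma, adjusted p = 2.11e-16) and 1.07 ± 0.09 for AT5G35735 (limma, adjusted p = 9.6e-17). That of AT5G52050 was 1.50 ± 0.10, a description, since AT5G52050 may have passed the filter only through Bur-0 and Col-0.

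At 1 h and 3 h, on arrays that the rule did not use, most members stood higher in Bur-0 and Col-0 than in the other 5. The level contrast took the mean of Bur-0 and Col-0 minus the mean of the other 5, and calls needed a change of 2-fold or more together with an adjusted p (Benjamini-Hochberg) below 0.05. Without the low-signal filter 31 of 34 members were called higher at 1 h, where 0.897% of all 22746 probe sets were, and 31 at 3 h, where 0.928% were. With the filter 31 members remained for testing. Among them 7 passed it only through Bur-0 and Col-0, since over the arrays of the other 5 alone they lay under its limit. The filtered counts are therefore a description, and so are the level differences of these 7. The 7 were not listed by name. Low signals in the other 5 make ORA47, AT1G19210, AT1G76640 and AT5G52050 candidates among others, so no p-value is printed for their levels. Without the filter no call of a single member changed. Of the 31, 28 were called higher at 1 h, where 1.19% of all 15922 tested probe sets were, and 28 at 3 h, where 1.25% were. In limma 0 members were called lower at either time, against 0.258% and 0.301% of all tested, and 0 were lower at an unadjusted p under 0.05. With 64 added to the signals 19 members were called at 1 h and 21 at 3 h, and among those that dropped below 2-fold at 1 h were AT5G35735 at 0.96, AT3G62260 at 0.90, AT1G76640 at 0.89, AT5G52050 at 0.80, AT2G18210 at 0.58 and AT5G64870 at 0.56.

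**Figure D3:**
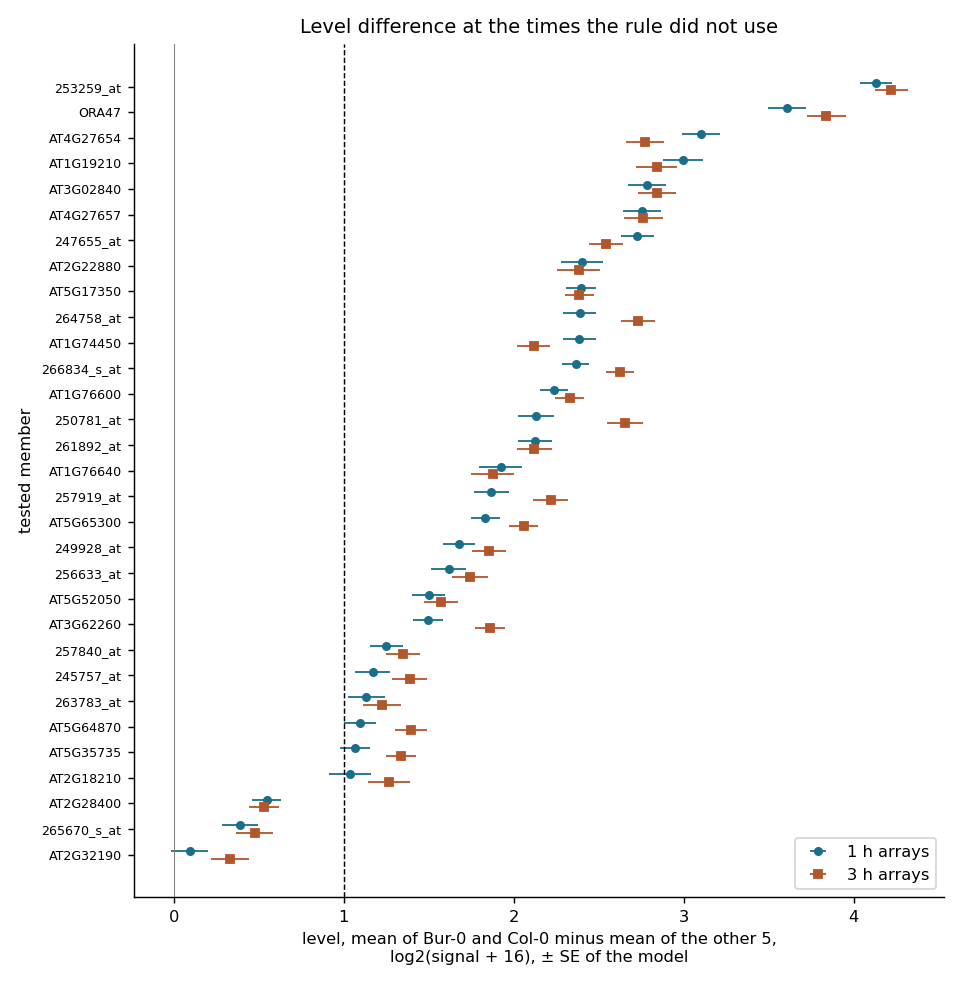
Level difference at 1 h (circles) and 3 h (squares), mean of Bur-0 and Col-0 minus mean of the other 5 accessions on the log2(signal + 16) scale (x axis), with bars for the SE of the model, for the 31 members that passed the low-signal filter (y axis). Differences run from 0.09 for AT2G32190 at 1 h to 4.22 for 253259_at at 3 h, and 3 members lie left of the dashed line at 1 at both times.

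AT4G27654 differed by 3.10 ± 0.11 at 1 h and 2.77 ± 0.11 at 3 h. Only 253259_at, with 4.13 ± 0.09 at 1 h and 4.22 ± 0.10 at 3 h, had a larger difference than ORA47 among the tested members. On 253259_at the Bur-0 arrays read 198, 192 and 235 and the Col-0 arrays 577, 586 and 637 at 1 h, and the other 5 between 0.970 and 10.0. AT4G27657, chosen after its values were seen because it neighbours AT4G27654, differed by 2.75 ± 0.11 at 1 h and 2.76 ± 0.11 at 3 h. At 1 h AT4G27657 averaged 96.5 ± 5.44 in Bur-0 and 136 ± 3.36 in Col-0 (SD, n = 3 each), while the highest mean of the other 5 was 12.1 ± 3.72, in Bl-1 (SD, n = 3). AT5G17350 differed by 2.40 ± 0.09 at 1 h and 2.39 ± 0.09 at 3 h, AT1G76600 by 2.24 ± 0.08 and 2.33 ± 0.09, and AT1G74450 by 2.39 ± 0.10 at 1 h.

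For 3 members the level did not set Bur-0 and Col-0 apart by 2-fold. AT2G32190 differed by 0.09 ± 0.11 at 1 h (limma, adjusted p = 0.537) and 0.33 ± 0.11 at 3 h (limma, adjusted p = 0.0166). Its mean signals at 1 h were 135 ± 26.7 in Bur-0 and 72.1 ± 10.9 in Col-0, against 148 ± 31.3 in Sha (SD, n = 3 each), so Col-0 was among the lowest and Sha the highest. Member 265670_s_at, which shares a target with AT2G32190, differed by 0.39 ± 0.11 and 0.48 ± 0.11. AT2G28400 differed by 0.55 ± 0.09 and 0.53 ± 0.09. At 1 h AT2G28400 averaged 86.7 ± 15.3 in Bur-0 and 104 ± 6.70 in Col-0, against 97.6 ± 7.18 in Bay-0 (SD, n = 3 each).

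Array by array, the 6 arrays of Bur-0 and Col-0 lay above all 15 of the other 5 in 28 of 34 members at 1 h, and above all 14 in 29 at 3 h. Among the 31 members tested there were 25 at 1 h, beside 1.17% of all tested probe sets, and 26 at 3 h, beside 1.35%. The share over all probe sets before the filter was not counted, so the counts over 34 are a description. The exceptions at 1 h were AT2G18210, AT5G35735, AT5G64870, AT2G32190, AT2G28400 and 265670_s_at. For AT2G18210 the array values at 1 h were 78.6, 86.3 and 82.7 in Bur-0 and 118, 99.6 and 108 in Col-0, against 106, 95.2 and 115 in Bay-0, so Bay-0 overlapped with Col-0 and lay above Bur-0. At 3 h AT2G18210 had 28.8, 33.4 and 41.0 in Bay-0 and no longer overlapped.

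Part of the level difference was present before treatment. On the 0 h arrays, which the rule used, the same difference had a median of 0.72 over the 34 members, lay above 0 in 28 of them and ran from -0.51 to 1.75. The arrays of both sides did not overlap at 0 h for 6 members, ORA47, AT4G27654, AT4G27657, AT5G65300, 253259_at and 254074_at. How many of all probe sets were apart in this way at 0 h was not counted, so these 6 are a description. Among the members with a difference below 0 were AT2G32190 (-0.43), AT2G18210 (-0.33) and AT1G76640 (-0.09). The median was 1.71 at 30 min, 1.90 at 1 h and 2.09 at 3 h, as medians over the 34. The highest accession was Col-0 in 23 members at 0 h and in 31 at 1 h, and Bur-0 in 1 and 2. The median over members of the group mean signal was 123 in Bur-0 and 226 in Col-0 at 30 min, against 23.2 to 65.8 in the other 5, and 34.5 in Bur-0 and 77.7 in Col-0 at 0 h, against 13.4 to 39.1. Before treatment 10 members were highest in an accession other than these, among them AT2G18210, AT1G76640, AT5G35735 and AT2G28400 in Bay-0 and CML37 and AT2G32190 in Sha. Signals below 16, which the added constant flattens, were the mean at 0 h for 2 members in Col-0, 9 in Bur-0, 8 in Bay-0, 9 in Sha, 12 in Bl-1, 16 in C24 and 18 in Fei-0, so changes from such levels are understated on this scale.

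The step from 1 h to 3 h, which also uses no array of the rule, asked whether the members kept moving. In Bur-0 0 of 31 tested members were called higher (0.27% of all tested) and 1 lower (0.76%), and in Col-0 0 were called higher (0.352%) and 0 lower (0.521%). At an unadjusted p under 0.05 and any size in limma, 5 were higher and 4 lower in Bur-0, and 3 higher and 2 lower in Col-0. The share of all tested at that limit was not counted, so these counts are a description. The median step was 0.01 in Bur-0 and 0.00 in Col-0, beside 0.02 and 0.01 over all probe sets tested. The member called lower in Bur-0 was 245757_at, singled out for this call, with 138, 144 and 134 at 1 h and 48.3, 54.3 and 59.8 at 3 h, a step of -1.14 ± 0.17 (limma, adjusted p = 5.22e-07). Probe set 245757_at was also lower at 3 h in Bay-0, at -1.35 ± 0.17, and in Sha, at -1.70 ± 0.17, and in Col-0 its arrays overlapped, at 151, 224 and 219 at 3 h against 248, 225 and 232 at 1 h.

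At any size, 2 tested members were past the adjusted p upwards (6.28% of all tested) and 3 downwards (7.03%) in Bur-0, and 1 upwards (3.32%) and 1 downwards (3.91%) in Col-0. Of these, AT3G62260 was higher at 3 h than at 1 h in Bur-0, by 0.43 ± 0.15 (limma, adjusted p = 0.0418), and AT2G22880 lower, at -0.63 ± 0.21 (limma, adjusted p = 0.0318). In Col-0 the efflux carrier AT5G52050 was lower at 3 h, at -0.59 ± 0.17 (limma, adjusted p = 0.0144). In the other accessions 0 tested members were called higher, where 0.816% of all tested were in Bay-0, 0.647% in C24, 0.364% in Sha, 0.295% in Fei-0 and 0.201% in Bl-1. Called lower were 2 in Bay-0 (1.09%), 1 in Sha (0.446%) and 1 in Fei-0 (0.628%), with 0 in C24 (0.773%) and 0 in Bl-1 (0.396%). They were AT2G18210 in Bay-0, with a step of -1.28 ± 0.21, AT2G22880 in Fei-0, with a step of -1.20 ± 0.23 that rests on the 2 arrays at 3 h, and 245757_at in Bay-0 and Sha.

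**Figure D4:**
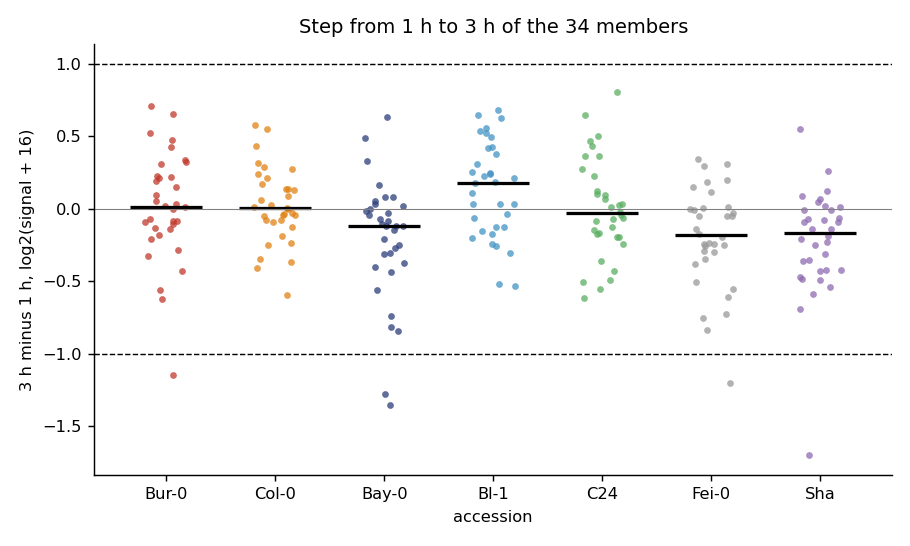
Step of the group mean from 1 h to 3 h on the log2(signal + 16) scale (y axis) for the 34 members in each accession (x axis), with 1 point per member, a bar at the median and dashed lines at 2-fold. The points of Bur-0 and Col-0 centre on 0, and the lowest point is that of 245757_at in Sha at -1.70.

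Tested directly, the step did not differ between Bur-0 with Col-0 and the other 5 for any tested member past the threshold. In limma 0 of 31 were called higher (0% of all tested) and 0 lower (0.0188%), with 7 higher and 1 lower at an unadjusted p under 0.05. No share of all tested was counted at the unadjusted limit. The widest difference was 0.52 ± 0.15 for 250781_at (limma, adjusted p = 0.112), and AT3G62260 followed with 0.36 ± 0.12 (limma, adjusted p = 0.249). The misses do not show that the steps were equal.

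Set against their own 0 h arrays at the later times, most members stood higher in Bur-0 and Col-0. These changes share the 0 h arrays with the rule and with each other, so they stand here side by side as values and support nothing on their own. At 1 h 29 of 31 tested members were called higher in Bur-0 (1.9% of all tested) and 29 in Col-0 (1.53%), and at 3 h 26 in Bur-0 (1.61%) and 29 in Col-0 (1.95%). At 30 min the rule itself made all 31 pass in both, where 1.24% of all tested probe sets in Bur-0 and 1.34% in Col-0 did. Called lower were 0 members at 1 h in Bur-0 (1.02%) and Col-0 (0.258%) and 0 at 3 h (2.32% and 0.76%), and in limma 0 were lower at an unadjusted p under 0.05. With 64 added to the signals the higher calls were 17 in Bur-0 and 18 in Col-0 at 1 h, and 17 in each at 3 h, a description without the shares of all tested. Medians over the 34 members were 1.29 at 30 min, 1.50 at 1 h and 1.58 at 3 h in Bur-0, and 1.25, 1.34 and 1.36 at the same times in Col-0. The members that missed 2-fold at 1 h were AT2G28400 in both accessions, AT5G64870 in Bur-0 and 263783_at in Col-0.

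The changes in the other 5 share the same 0 h arrays and are likewise a description. C24 had 3 called higher at 1 h (1.11%), AT2G22880 by 1.41 ± 0.21, 257919_at by 1.25 ± 0.17 and 261892_at by 1.08 ± 0.17, and 1 at 3 h (1.46%), 261892_at by 1.54 ± 0.17. Bl-1 had 0 called higher at 1 h (0.904%) and 4 at 3 h (1.03%), AT5G65300 by 1.31 ± 0.14, AT4G27654 by 1.23 ± 0.19, AT5G17350 by 1.17 ± 0.15 and 247655_at by 1.12 ± 0.17. Of these, the probe sets without a gene, and AT5G65300, were singled out for their calls. Neither C24 (0.471% at 1 h, 1.19% at 3 h) nor Bl-1 (0.484%, 0.917%) nor Fei-0 (0.232%, 0.93%) had a member called lower, and 0 were lower there at an unadjusted p under 0.05 in limma. In Fei-0 0 were called higher at 1 h (0.697%) or 3 h (0.572%), and 17 and 5 were higher at an unadjusted p under 0.05 in limma. At any size, tested members past the adjusted p upwards were 11 at 1 h and 15 at 3 h in Bl-1. There were 12 and 11 in C24 and 8 and 2 in Fei-0, with 0 downwards in each. The shares of all tested at these 2 limits were not counted, so these counts are a description.

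A high 0 h level in Bay-0 or Sha also helped a probe set to meet the rule, so the lower values that follow cannot be told apart from the choice of members. In Bay-0 0 were called higher at 1 h (1.15%) or 3 h (1.76%), while AT1G76640 was called lower at 1 h (0.245% of all tested), at -1.79 ± 0.21, and with AT2G18210 at 3 h (1.27%), at -2.35 ± 0.21 and -1.64 ± 0.21. At any size, 11 tested members in Bay-0 (9.85% of all tested) and 14 in Sha (7.19%) were past the adjusted p downwards at 3 h. Upwards at 3 h were 1 in Bay-0 and 2 in Sha. At 1 h 2 were upwards and 5 downwards in Bay-0, and 6 upwards and 4 downwards in Sha. The shares of all tested were not counted for these last counts, which are a description. In Sha 0 were called higher at 1 h (1.26%) or 3 h (1.48%), and lower were 0 at 1 h (0.433%) and 1 at 3 h (0.967%), 245757_at at -2.08 ± 0.17. Median changes over the 34 members were 0.51 at 30 min, -0.02 at 1 h and -0.15 at 3 h in Bay-0, and -0.04, -0.17 and -0.35 in Sha. The markers moved too at 3 h against 0 h. In Sha both root markers were called higher, EXPA18 by 1.37 and EXPA7 by 2.22, with a mean summed signal of 321.7 at 3 h against 66.7 at 0 h. EXPA7 was also called higher in Bay-0, by 1.22, and in Col-0, by 1.10. In Bur-0 2 of 4 shoot markers were called lower, LHCB4.2 at -1.51 and LHCB4.3 at -1.08, with a mean summed signal of 7502.8 at 3 h against 12609 at 0 h. Their part in the members' changes was not tested.

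**Figure D5:**
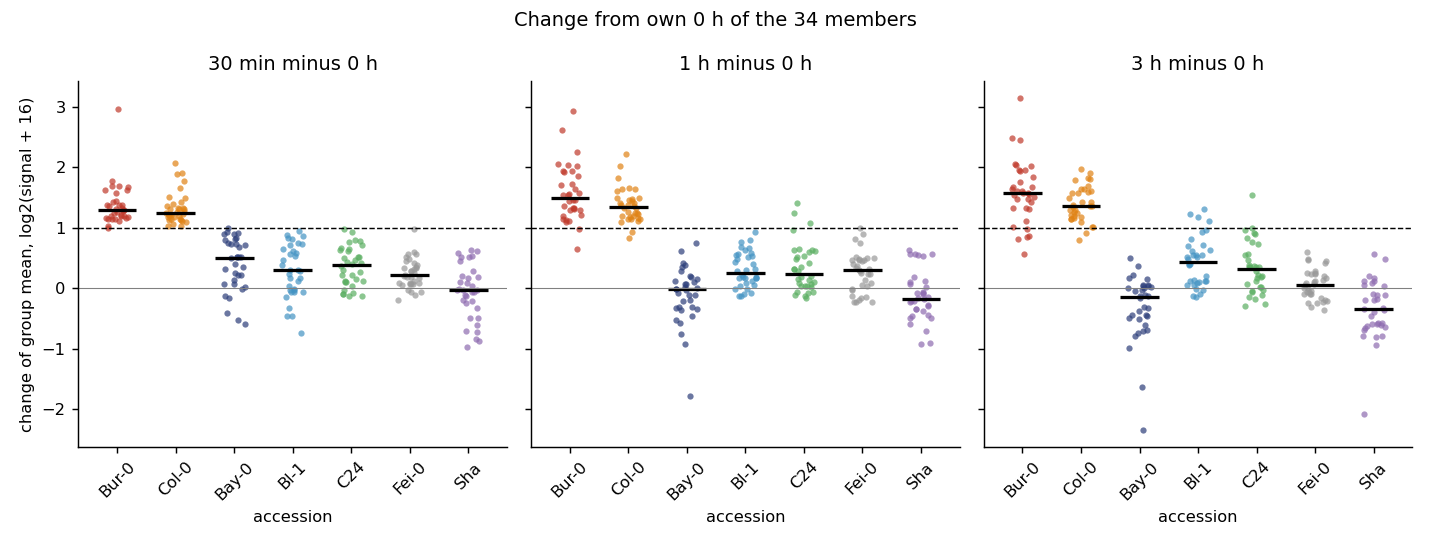
Change of the group mean from the same accession's 0 h on the log2(signal + 16) scale (y axis) at 30 min, 1 h and 3 h for the 34 members in 7 accessions (x axis), with 1 point per member, a bar at the median and a dashed line at 2-fold. The 30 min panel shows the values the rule used, and in the later panels Bur-0 and Col-0 have medians from 1.34 to 1.58 while those of the other 5 run from -0.35 to 0.44.

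Genes of related pathways were read through lists made with earlier results of these data known. In the level contrast at 1 h 1.19% of all tested probe sets were called higher and 0.258% lower, the shares beside each list count here. Of the longer rapid stress and touch list only 7 genes were matched to a probe set, and 6 passed the filter. Besides the members 5 of its genes were tested for level at 1 h, and 3 were called higher in Bur-0 and Col-0 and 0 lower. They were the zinc-finger repressor STZ, by 3.53 ± 0.09, and the U-box ubiquitin ligases PUB22, by 1.64 ± 0.10, and PUB23, by 1.26 ± 0.07, while PUB24 had 0.11 ± 0.09 and PUB26 0.13 ± 0.08. STZ and PUB22 met the 30 min thresholds themselves, with changes of 1.65 and 1.01 in Bur-0 and 1.41 and 1.10 in Col-0. They are not counted among the 34, and their level calls are a description. Of 6 calcium sensors besides the members, 2 were called higher at 1 h, CML38 by 2.93 ± 0.12 and CML23 by 1.92 ± 0.14, and 0 lower. Of 5 WRKY factors 1 was called higher, WRKY22 by 1.07 ± 0.08, and 0 lower, and WRKY22 was at 0.93 ± 0.09 at 3 h, under 2-fold. CML38 and WRKY22 are also genes the rule left out by name, so their level calls are a description. At 30 min CML38 had changed by -0.01 in Bur-0 and 0.51 in Col-0, against -1.55 (Sha) to 0.085 (Bay-0) in the other 5. WRKY22 had changed by 0.46 and 0.59, against -0.66 (Bl-1) to -0.23 (C24). Of 11 ubiquitin ligases the 2 called higher at 1 h were PUB22 and PUB23, and 0 were called lower.

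Primary auxin genes were read the same way. Of 10 tested Aux/IAA, GH3, LBD and related genes, 8 were called higher at 1 h than at 0 h in Bur-0 (1.9% of all tested) and 8 in Col-0 (1.53%). In each of the other 5 accessions 8 were called higher as well, beside 0.697% to 1.26% of all tested. No SAUR gene was matched to a probe set for this list. For the level at 1 h, 0 of the same 10 were called in either direction in limma, with differences from -0.43 to 0.34 and a median of 0.13, and at any size 4 were past the adjusted p upwards (12.5% of all tested) and 1 downwards (21.2%). Of 4 genes induced by low oxygen, 3 were called lower at 1 h than at 0 h in Bur-0 (1.02% of all tested) and 3 in Col-0 (0.258%). In each of the other 5 accessions 3 were called lower as well, beside 0.232% to 0.484% of all tested. In the level contrast at 1 h 0 of the 4 were called.

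Markers and RNA quality were read beside the level contrast. The summed signal of 4 shoot photosynthesis markers lay between 7330.0 and 11231 on the Bur-0 and Col-0 arrays and between 4449.4 and 9885.7 on those of the other 5 at 1 h, and that of the root markers EXPA7 and EXPA18 between 51.6 and 105.8 and between 28.5 and 202. For the shoot markers Bay-0 (5260.4 to 6959.6) and Sha (4449.4 to 5027.8) lay below all Bur-0 and Col-0 arrays at 1 h, while Bl-1, C24 and Fei-0 overlapped with them. At 0 h the mean shoot sums were 4940.9 in Bay-0 and 5204.7 in Sha, against 12609.4 in Bur-0 and 10337.1 in Col-0. The remaining accessions had 8958.2 to 10222.9. None of these 6 markers was at 0 in a group mean. In the level contrast at 1 h 0 of 4 shoot and 0 of 2 root markers were called, but LHCB4.2 was higher by 0.82 ± 0.09 (limma, adjusted p = 7.77e-11) and LHCB4.3 lower at -0.24 ± 0.10 (limma, adjusted p = 0.0486), both under 2-fold. The 3'/5' signal ratio of the actin control had group means of 62.9 to 105 in Col-0, the accession that was highest in most members, against 16.0 to 29.6 in Bur-0 and 2.57 to 60.7 in the other 5, and that of GAPDH 1.93 to 2.92, 1.70 to 2.67 and 1.41 to 2.99. The part of these in the level differences was not tested. The array serials run through accessions and times in turn, so neither can be told apart from an order of processing, and how well each accession's transcripts hybridise to these probes was not measured here.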

How the data were processed

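RNA of whole seedlings was hybridised to 83 Affymetrix ATH1 arrays, 1 sample per array. The deposited values are linear signal intensities, 1 per probe set, made by the authors with MAS5 in GCOS per the submitters' processing notes; the sources used here give no version of either. On every array the mean signal without the highest and lowest 2% was 100, and the median was 38.0 to 43.3. The signals were kept as deposited, with no further normalization, and 16 was added before taking log2. After removing 64 control probe sets and the 30% with the lowest mean log2(signal + 16) (6824), 15922 were tested.

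A means model over the 28 groups was fitted to all 83 arrays with limma 3.58.1 (R 4.3.3, eBayes with trend), 55 residual degrees of freedom, and p-values were adjusted by Benjamini-Hochberg over the 15922 probe sets in each contrast. Calls needed an adjusted p under 0.05 and at least 2-fold. Tests of the members rest on the 1 h and 3 h arrays: the level difference, with each accession weighted equally, the step from 1 h to 3 h, and its difference. The number of arrays limits the precision, and signal intensities do not give a count of molecules. Arrays of a group correlated at 0.964 to 0.991. Alternatives were 1 or 64 in place of 16, no low-signal filter, quantile normalization, the replicate number as a block and each array left out. Tables and plots were made with Python 3.11.15, pandas 2.3.3, numpy 2.4.6 and matplotlib 3.10.9.

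The members, the gene lists and the tests were chosen with earlier results of these data known. Gene names come from the platform's listing, which pairs 13513 probe sets with 1 gene, 503 with several and 8730 with none, and from RefSeq names of assembly TAIR10.1. Named genes, each from a probe set listed with 1 gene, were the 10 members with the largest value of the smaller of their Bur-0 and Col-0 changes at 30 min, members called in the step in either accession, the 4 with the largest called level difference at 1 h and at 3 h, up to 4 nearest each threshold inside and outside, list members with up to 4 called genes per list, and the 4 with the highest and lowest 30 min change in the other 5. Any other feature named was singled out after its values were seen. LHCB4.1, LHCB4.2, LHCB4.3 and RCA served as shoot markers, EXPA7 and EXPA18 as root markers. The lists of NAC factors, ethylene genes and receptor-like kinases gave 0 calls in the level contrast at 1 h, with 1, 1 and 2 genes tested. The 30 min contrast chose the members and carries no test, and promoter motifs and protein sequences were not analysed here.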

Additional observations from a re-analysis of the deposited data

Results flagged for a closer look

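In 28 cases, spread over 11 of the named members, every array of Bur-0 and of Col-0 lay above all 0 h arrays of its own accession while every array of another accession lay below all of its own. These opposite movements picked them out, and the values are changes of the group mean from 0 h on the log2(signal + 16) scale. The difference between the accessions was not tested here, and the 0 h arrays are those the choice of members used. Cases of members that were not named are left out. How many of all probe sets moved in this way was not counted, so the 28 cases are a description.

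At 1 h there were 4 cases in Bay-0 and 3 in Sha. ORA47 was at -0.76 in Bay-0 and -0.59 in Sha, against 1.94 in Bur-0 and 1.65 in Col-0. AT1G76640 was at -1.79 in Bay-0 and -0.47 in Sha, against 1.86 in Bur-0 and 1.19 in Col-0. AT1G76600 was at -0.53 in Bay-0 and -0.92 in Sha, and AT5G64870 at -0.33 in Bay-0.

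At 3 h there were 9 cases in Bay-0, 9 in Sha, 2 in Fei-0 and 1 in Bl-1, with 0 in C24. AT1G76640 was at -2.35 in Bay-0, -0.40 in Sha and -0.36 in Fei-0, and AT2G18210 at -1.64 in Bay-0 and -0.69 in Sha. AT1G76600 was at -0.79 in Bay-0 and -0.93 in Sha, AT3G02840 at -0.75 and -0.80, and ORA47 at -0.68 and -0.57 in the same accessions. AT5G64870 was at -0.70 in Bay-0 and -0.61 in Sha, AT4G27654 at -0.51 and -0.65, and AT5G17350 at -0.16 and -0.65. AT2G22880 was at -0.38 in Bay-0, AT1G19210 at -0.46 in Sha, and AT3G62260 at -0.14 in Bl-1 and -0.19 in Fei-0.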

How the results depend on the processing

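The constant added to the signals moved the counts below, and the cause was not tested. Calls over all tested probe sets are given only for the level contrast with 1, 16 or 64 added. The other member counts under the alternatives, those with an array left out included, have no such share beside them and are a description. With 64 the rule chose 11 probe sets, and with 1 it chose 56. With 64, 17 members in Bur-0 and 18 in Col-0 were called higher at 1 h than at 0 h, and 17 and 17 at 3 h; 0 were called in C24 at 1 h, in Bl-1 at 3 h or lower in Bay-0 at 1 h, and the 1 h to 3 h step had 0 lower calls in Bur-0, Bay-0, Fei-0 and Sha. With 1, the step had 5 lower calls in Bay-0, 3 in Fei-0, 3 in Sha, 1 in Bl-1, and 1 higher and 1 lower in C24. With 1, the 1 h change had 3 lower in Bay-0, 3 higher in Fei-0, 6 in C24, 6 in Bl-1, and 1 higher and 4 lower in Sha, and the 3 h change had 7 lower in Bay-0, 1 higher in Fei-0, 9 in C24, 10 in Bl-1 and 6 lower in Sha. Level calls at 1 h and 3 h were 28 and 28 of 31 with 1, 19 and 21 with 64, and 28 and 28 after quantile normalization; over all tested probe sets the higher calls were 190 and 199 with 16, 313 and 344 with 1, and 98 and 105 with 64, and the lower ones 41 and 48, 136 and 159, and 17 and 19. The 124 results for single members held 28 level calls at 1 h, 28 at 3 h and 1 call of a step, in Bur-0. Of these calls, 17 fell under the threshold with 64, among them AT1G76640 (0.89 at 1 h) and AT5G52050 (0.80). No called result changed sign under any alternative, and results that were not called were not checked for sign. Leaving out each array in turn gave 0 to 2 lower steps in Fei-0 (2 without replicate 3 and 0 without replicate 2 at 3 h), 0 to 1 higher in Bl-1 at 1 h (replicate 3 at 0 h or replicate 1 at 1 h), 0 to 2 higher in Fei-0 at 1 h (replicates 2 and 3 at 0 h, replicate 1 at 1 h), 0 to 2 lower in Sha at 1 h and 1 to 4 at 3 h (replicate 3 at 0 h), and 1 to 3 higher in C24 at 3 h (replicates 1 and 3 at 0 h, 2 and 3 at 3 h). Samples of the same replicate number share only a number: 18 of 123 same-numbered pairs of arrays had deviations correlated above 0.1, with a range of -0.348 to 0.255, and with the replicate block 28 members were called higher at each of 1 h and 3 h and no call of a single member changed. Signals near or under 16, frequent in the other 5, limit what a change there can show.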
